A study of Mus musculus with 9 samples.

Results

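In primary oviductal muscle cells, 389 of 20722 protein-coding genes on the 19 autosomes carried H3K27ac at their promoters without any H3K4me1. A promoter was the window reaching 1 kb either side of an annotated start of any coding transcript, and all windows of a gene counted as its promoter. Genes were chosen by the peak calls of both marks: a gene was kept when H3K27ac peaks overlapped its windows by at least 1 bp in each of the 3 replicates, and when none of 4 H3K4me1 peak lists, 3 of single replicates and 1 pooled, held a peak there. The presence of H3K27ac and the absence of H3K4me1 at these promoters are therefore the choice itself and not results.

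The cells came from WT mice aged 8-12 weeks on Day 2 of pregnancy after mating with a stud male, with no other genotype or treatment in the libraries used here. Oviducts were digested with enzymes, passed through a filter and plated for a few hours before fixation, so the cells were a cultured fraction of the organ and not a sorted cell type. ChIC-Seq, in which an antibody carries protein A fused to MNase to its target and the cut fragments are sequenced, was done on 50000 cells per library. There were 3 libraries for H3K27ac, 3 for H3K4me1 and 3 with control IgG. The labels do not say whether the replicates came from separate mice, so the spread between them may be technical.

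H3K27ac, acetylation of lysine 27 of histone H3 by the EP300 and CREBBP acetyltransferases, marks active promoters and active enhancers. H3K4me1, a single methyl group on lysine 4 of the same histone, is placed mostly by the KMT2C and KMT2D enzymes. It covers enhancers and the flanks of active promoters, whose centres usually carry trimethylation in its place. H3K4me3, which would mark the centre of such promoters, was not analysed here.

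To show the DNA at these promoters, 12 of them are printed from 5′ to 3′ along the gene, from 250 bases before to 50 bases after the RefSeq start site on GRCm38.p6. RefSeq held such an entry for 301 of the 389 genes. Capitals mark matches, on either strand, to any of 13 short motifs searched for, and a match is a description of the letters and not evidence that a factor was bound. The motifs were the GC box of SP and KLF factors (GGGCGG), the CCAAT box (CCAAT), and the sites of ETS factors (CCGGAAGT), NRF1 (GCGCANGCG), YY1 (AAGATGGCG), ZNF143 (ACTACAA), CREB and ATF (TGACGTCA), AP-1 (TGANTCA) and TEAD (GGAATG). The E-box of MYC and USF (CACGTG), the palindrome CTCGCGAG, the TATA box (TATAAA) and the CArG box of SRF completed the set. None of the motifs spelled out lies within another, whereas the variable middle of the CArG box can take in a TATA or CCAAT match.

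Among the genes with the highest H3K27ac, Zc3h4, a zinc finger protein of transcription termination, lies at chr7:16400946-16401245 on the plus strand. Hnrnpa0, an RNA-binding protein, lies at chr13:58128507-58128806 on the minus strand. Tnrc18, a chromatin-associated protein, lies at chr5:142817613-142817912 on the minus strand, where a reversed TATA box runs directly into a TEAD match. Gm10382 and Setd1b belonged to the same group and are named only. The first of these promoters is a CpG-rich stretch with 1 GC box, whereas the others add CCAAT boxes in the reversed form ATTGG or the forward one.
Zc3h4: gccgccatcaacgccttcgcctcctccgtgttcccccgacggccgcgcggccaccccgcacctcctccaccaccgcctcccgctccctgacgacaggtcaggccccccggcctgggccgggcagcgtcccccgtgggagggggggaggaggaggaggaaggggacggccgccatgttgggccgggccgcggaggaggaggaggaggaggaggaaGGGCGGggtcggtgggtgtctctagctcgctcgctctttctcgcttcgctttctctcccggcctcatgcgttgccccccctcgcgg
Hnrnpa0: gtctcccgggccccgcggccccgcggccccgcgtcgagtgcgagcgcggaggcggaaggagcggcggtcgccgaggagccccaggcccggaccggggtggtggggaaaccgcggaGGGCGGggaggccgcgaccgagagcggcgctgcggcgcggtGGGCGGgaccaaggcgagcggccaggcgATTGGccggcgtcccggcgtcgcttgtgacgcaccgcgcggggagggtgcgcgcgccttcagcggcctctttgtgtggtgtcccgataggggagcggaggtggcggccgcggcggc
Tnrc18: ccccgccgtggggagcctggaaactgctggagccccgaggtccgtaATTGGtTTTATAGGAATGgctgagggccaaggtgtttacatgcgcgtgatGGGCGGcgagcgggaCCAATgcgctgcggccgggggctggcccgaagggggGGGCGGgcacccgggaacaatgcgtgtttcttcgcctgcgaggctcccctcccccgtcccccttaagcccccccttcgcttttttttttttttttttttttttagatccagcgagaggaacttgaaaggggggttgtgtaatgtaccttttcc

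Hand2, a helix-loop-helix factor of mesenchyme and of the progesterone response in the reproductive tract, was fixed for description whatever its marks. Its sequence was to be shown only if it was among the chosen genes, which it was. It lies at chr8:57320733-57321032 on the plus strand, with 2 GC boxes and 2 CCAAT boxes. Actg1, cytoplasmic gamma-actin, is shown as the best-ranked carrier of a CArG box. It lies at chr11:120348446-120348745 on the minus strand and holds 6 GC boxes.
Hand2: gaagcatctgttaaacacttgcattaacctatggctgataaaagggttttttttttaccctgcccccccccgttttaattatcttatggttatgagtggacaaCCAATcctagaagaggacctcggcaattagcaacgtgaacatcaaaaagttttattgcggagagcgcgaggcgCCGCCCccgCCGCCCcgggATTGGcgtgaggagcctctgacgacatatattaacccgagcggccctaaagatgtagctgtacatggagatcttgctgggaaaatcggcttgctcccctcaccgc
Actg1: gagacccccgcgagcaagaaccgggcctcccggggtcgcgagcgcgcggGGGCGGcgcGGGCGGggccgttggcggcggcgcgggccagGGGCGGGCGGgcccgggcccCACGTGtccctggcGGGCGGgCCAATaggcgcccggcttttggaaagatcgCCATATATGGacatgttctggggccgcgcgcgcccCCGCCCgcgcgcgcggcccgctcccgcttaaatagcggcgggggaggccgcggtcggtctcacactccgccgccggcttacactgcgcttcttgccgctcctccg

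Rxrb, a retinoid X receptor, and Slc39a7, a zinc transporter, are transcribed away from each other from GENCODE starts 150 bp apart. Their windows around the RefSeq starts, chr17:34031562-34031861 on the plus strand and chr17:34031641-34031940 on the minus strand, overlap, so the same 2 GC boxes, NRF1 match and YY1 match appear in each, reversed in the other.
Rxrb: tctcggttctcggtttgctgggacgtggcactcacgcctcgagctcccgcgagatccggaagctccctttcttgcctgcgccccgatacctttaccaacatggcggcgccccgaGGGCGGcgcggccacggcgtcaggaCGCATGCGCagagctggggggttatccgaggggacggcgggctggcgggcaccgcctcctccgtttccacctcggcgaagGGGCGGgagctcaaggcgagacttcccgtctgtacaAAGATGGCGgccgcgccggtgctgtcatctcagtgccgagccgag
Slc39a7: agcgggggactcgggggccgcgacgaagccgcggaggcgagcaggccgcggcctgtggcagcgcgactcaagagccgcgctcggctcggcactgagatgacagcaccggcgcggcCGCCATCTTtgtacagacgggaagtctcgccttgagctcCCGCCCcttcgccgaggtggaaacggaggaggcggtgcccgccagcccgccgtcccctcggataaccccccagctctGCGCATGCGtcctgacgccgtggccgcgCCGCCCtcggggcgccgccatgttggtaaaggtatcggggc

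The remaining 5 are the best-ranked carriers of a further motif. Lrrc41 (chr4:116075019-116075318, plus strand) holds an ETS and an AP-1 match, and Bckdk (chr7:127903823-127904122, plus strand), the kinase of branched-chain ketoacid dehydrogenase, a ZNF143 match. Fscn1 (chr5:142960105-142960404, plus strand), the actin-bundling protein fascin, holds a CREB match close before a TATA box. Bcl6 (chr16:23988803-23989102, minus strand), a transcriptional repressor, holds an E-box, and Gpatch3 (chr4:133574495-133574794, plus strand) the CTCGCGAG palindrome with a YY1 match just after the start.
Lrrc41: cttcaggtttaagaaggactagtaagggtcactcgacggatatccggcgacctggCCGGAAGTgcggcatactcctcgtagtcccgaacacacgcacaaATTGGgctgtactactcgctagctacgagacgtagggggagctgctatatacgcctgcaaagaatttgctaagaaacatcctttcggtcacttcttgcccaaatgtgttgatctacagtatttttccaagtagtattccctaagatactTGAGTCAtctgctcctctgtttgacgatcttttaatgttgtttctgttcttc
Bckdk: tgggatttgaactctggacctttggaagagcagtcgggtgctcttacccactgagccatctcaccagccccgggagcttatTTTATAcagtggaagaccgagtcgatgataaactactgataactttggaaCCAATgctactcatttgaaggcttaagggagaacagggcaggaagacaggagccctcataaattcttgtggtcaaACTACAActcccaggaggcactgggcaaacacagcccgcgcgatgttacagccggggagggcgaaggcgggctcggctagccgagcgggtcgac
Fscn1: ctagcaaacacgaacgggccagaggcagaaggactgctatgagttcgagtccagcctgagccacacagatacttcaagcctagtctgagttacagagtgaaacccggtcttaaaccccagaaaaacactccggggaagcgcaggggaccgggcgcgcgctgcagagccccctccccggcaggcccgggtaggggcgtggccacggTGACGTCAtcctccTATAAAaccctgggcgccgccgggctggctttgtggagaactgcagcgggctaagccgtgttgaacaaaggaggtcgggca
Bcl6: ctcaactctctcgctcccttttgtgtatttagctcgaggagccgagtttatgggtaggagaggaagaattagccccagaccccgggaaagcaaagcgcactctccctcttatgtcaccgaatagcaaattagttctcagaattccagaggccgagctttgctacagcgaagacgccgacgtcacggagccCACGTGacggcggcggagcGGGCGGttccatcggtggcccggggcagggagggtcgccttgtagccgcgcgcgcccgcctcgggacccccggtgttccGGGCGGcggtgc
Gpatch3: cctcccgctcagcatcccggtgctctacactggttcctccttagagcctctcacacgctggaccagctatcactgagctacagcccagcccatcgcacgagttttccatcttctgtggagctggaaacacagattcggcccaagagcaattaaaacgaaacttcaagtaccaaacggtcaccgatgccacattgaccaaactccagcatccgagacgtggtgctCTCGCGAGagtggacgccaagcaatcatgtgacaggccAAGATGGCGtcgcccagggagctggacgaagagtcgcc

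The genes chosen made up 1.88% of all autosomal protein-coding genes. H3K27ac peaks lay over the promoters of 9718 genes in all 3 replicates, 46.9% of the total, and the chosen genes were 4.00% of these. At the other H3K27ac promoters, H3K4me1 was present in 1 of the 4 lists at 681 genes, in 2 at 1359, in 3 at 2134 and in all 4 at 5155. Absence from all 4 lists was thus the least frequent of the 5 outcomes. For comparison below, 5172 genes had a peak of both marks in all 6 replicate lists and 6179 had no peak in any of the 8 lists. The pooled H3K27ac list, called on the same 3 libraries together, held a promoter peak for 381 of the 389 genes, or 97.9%, against 99.7% of the other genes with H3K27ac in all 3 replicates.

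The libraries held 40551842 to 42040809 fragments for H3K27ac, 41891318 to 78891920 for H3K4me1 and 3110985 to 3713369 for IgG. Each H3K27ac replicate list covered promoters of 54.1% to 56.4% of genes, and each H3K4me1 replicate list 42.6% to 46.5%. Peaks were called at a lenient threshold, so that the absence of an H3K4me1 peak says that none was called and not that the mark was absent. Replicate 1 of H3K27ac was called against IgG 1, replicate 2 of H3K27ac and replicates 1 and 2 of H3K4me1 against IgG 2, and replicate 3 of each mark against IgG 3. Of 10 smooth muscle marker genes, 4 had promoter H3K27ac in all 3 replicates (Acta2, Des, Smtn and Synpo2) and 9 in at least 1, compared with 10 of 10 stromal markers in all 3. None of 10 epithelial markers had it in all 3 and 5 in at least 1, and none of 5 endothelial markers in all 3 and 4 in at least 1. It lay in all 3 replicates at 1 of 8 blood cell markers, Ptprc, and at 1 of 3 mesothelial markers, Wt1. Stromal markers were thus marked more often than muscle markers in these cells, which the labels call muscle. What part cells of another type had in the chosen promoters was not tested.

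The 389 genes formed 362 separate loci, because the promoters of 54 of them overlapped in pairs. Divergent, or head-to-head, genes start within 1 kb of each other on opposite strands. Such a coding neighbour stood beside 85 of the 389 genes, or 21.9%, against 10.1% of all genes, 17.1% of genes with both marks and 1.2% of genes with no peak. The share was 18.5% for the other genes with H3K27ac in all 3 replicates, inside the 95% Clopper-Pearson interval of the 389, 17.8% to 26.3%, which is too narrow because pairs are counted from both sides. Within 300 bp it was 14.7% for the 389, 14.7% for genes with both marks and 15.3% for the other H3K27ac genes, so no excess over acetylated promoters was seen at that distance. The neighbour was itself chosen for 50 of the 85, which made 25 pairs, and was not for the other 35. In 23 of the 25 pairs the widest peak and the fold enrichment were identical for both genes in every replicate, so each such pair is 1 observation. Chromosome 7 held the most of these genes, 51, which were 6.91% of its H3K27ac promoters, followed by chromosome 11 with 44. Chromosome 18 held the fewest, 3, or 1.19%.

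The number of start sites is a feature that enters the choice, because each further start adds a window that must be free of H3K4me1. A single coding start was annotated for 162 of the 389, or 41.6%, compared with 22.4% of the genes with both marks, 36.9% of all genes and 50.5% of genes with no peak. Their median length was 12843 bp, against 31809 bp for the genes with both marks, 17596 bp for all genes and 8094 bp for genes with no peak.

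The strength of H3K27ac was described by 3 quantities of the peaks over each gene's promoter. Fold enrichment is the coverage in fragments plus 1, divided by the local IgG background plus 1, and the added 1 lowers the ratio at this IgG depth. Over the 389 genes the median of the highest fold enrichment was 2.08, 2.02 and 2.03 in replicates 1, 2 and 3. The genes with both marks gave 2.07, 2.04 and 2.07, so that the ratio of the medians was 0.993 ± 0.0110 (SD, n = 3). By replicate the ratio was 1.00, 0.991 and 0.983, so fold enrichment was nearly level between the groups.

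Coverage, expressed in multiples of the genome mean, was higher at the promoters without H3K4me1. Its median was 13.5, 14.2 and 15.1 times the mean in replicates 1, 2 and 3, compared with 11.7, 11.6 and 12.4 at promoters with both marks. The ratio was 1.15, 1.22 and 1.22, above 1 in each replicate. Fold enrichment and coverage thus gave different orders for the same promoters. Coverage is not corrected for local IgG, so higher coverage does not by itself show more H3K27ac here. By the definition above, level fold enrichment at higher coverage goes with a higher local IgG background at the promoters without H3K4me1. That background was not examined, and its part in the H3K4me1 calls was not tested. Of the 3 genes with the highest coverage in replicate 1, Gm10382 and Setd1b were also among the highest in fold enrichment, with a coverage of 24.2, 24.5 and 25 and of 21.6, 21.2 and 26.4 times the mean. The other, Coq7, an enzyme of coenzyme Q synthesis, combined a coverage of 22.2, 16.4 and 16.7 times the mean with a fold enrichment of 1.82, 2.04 and 2.15.

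The peaks were narrower. The widest H3K27ac peak over the promoter had a median width of 1770, 1704 and 1448 bp without H3K4me1 and of 2704, 2934 and 2466 bp with both marks, a ratio of 0.607 ± 0.0408 (SD, n = 3). The start site itself lay under H3K27ac at 69.4%, 65.3% and 62.2% of the 389 promoters, against 77.3%, 80.5% and 74.9%. In all 3 replicates at once it was covered at 40.9%, against 58.8% of the promoters with both marks. A window covered from end to end in every replicate was found at 32 of the 389 genes, or 8.23%, against 21.2%. Since the peaks of both groups enter the choice, these differences are descriptions and were not tested.

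**Figure D1:**
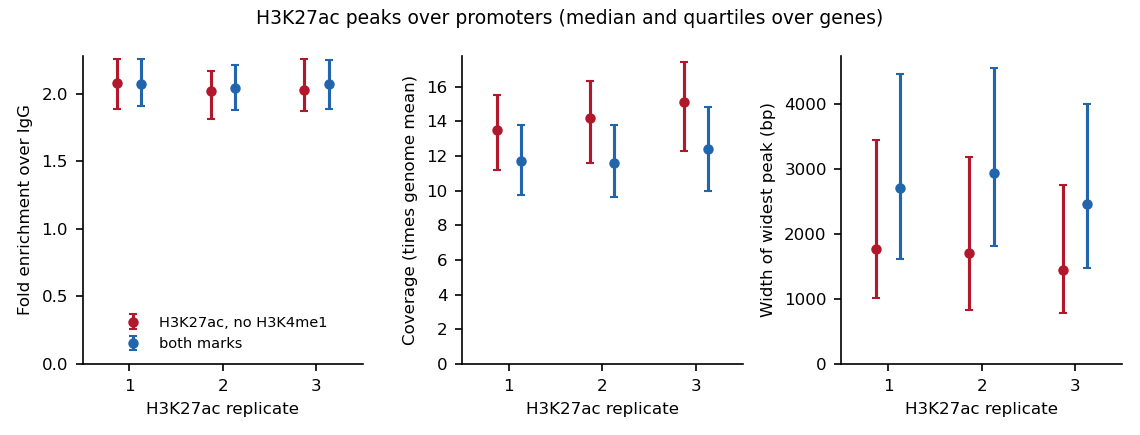
H3K27ac at promoters without H3K4me1 (red, 389 genes) and with both marks in all replicates (blue, 5172 genes), by H3K27ac replicate: highest fold enrichment over IgG, highest coverage in multiples of the genome mean, and width of the widest peak in bp. Points are medians and bars span the quartiles over genes; the fold enrichment is level, coverage is higher in red (13.5 to 15.1 against 11.6 to 12.4) and width is lower in red (1448 to 1770 bp against 2466 to 2934 bp).

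Between the highest and the lowest replicate, fold enrichment differed by less than 1.2 times at 271 of the 389 promoters, and by 1.6 times at most. The added 1 narrows the range of this ratio over genes as well, so this is no measure of close replicates, and peak widths at 1 promoter could differ far more. At 243 genes, 62.5%, the peaks had a −log10 p of at least 1.3 in all 3 replicates, a little below the 68.6% of promoters with both marks. The remaining H3K27ac promoters rest on weak calls in at least 1 replicate. Overlap could also be slight. The smallest, looked up after the values were seen, were 7 bp at Zbtb10 in replicate 3, 13 bp at Gm14401 in replicate 2 and 97 bp at Cd226 in replicate 1.

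The genes were ranked by the worst of their 3 places in fold enrichment and cut into 3 groups. The 130 best-ranked had a median widest peak of 3039 bp, the 129 in the middle 1715 bp and the 130 lowest 857 bp. All 130 of the first group passed −log10 p of 1.3 in every replicate, compared with 106 of the 129 and 7 of the last 130. Peak width and p come from the same peaks as the ranking, so both orders follow in part from it. Head-to-head genes were 26.9%, 24.0% and 14.6% of the groups in that order. The median distance from the window to the nearest H3K4me1 peak was 496, 485 and 1306 bp. CpG-rich starts, defined below, were 73.8%, 83.7% and 58.5%. In head-to-head share, distance and CpG, which did not enter the ranking, it was mainly the last group that stood apart.

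The bottom of the ranking held promoters with weak H3K27ac and little CpG. Among the 20 lowest-ranked genes, fold enrichment lay between 1.35 and 1.95 and 1 start, that of the H3K9 methyltransferase gene Setdb1, was CpG-rich. They included the immune cell genes Ccr2, Cd226, Klrd1, Xcr1, Clec4a2 and Ms4a7, the olfactory receptor Olfr430 and the pheromone receptor Vmn1r235, a grouping made after their names were seen. Ccr2, a chemokine receptor of monocytes, had a fold enrichment of 1.53, 1.50 and 1.51. Ptprc, the pan-leukocyte marker CD45, stood slightly higher in the ranking with 1.6, 1.71 and 1.59 and was the only one of the 8 blood cell markers with an H3K27ac promoter peak in any replicate. Csf1r, Cd3e, Cd79a, Itgam, C1qa, C1qb and Lyz2 had none, and the part of blood cells in the low-ranked promoters was not tested.

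H3K4me1 peaks of the lenient calls were often close by. From the edge of the promoter window, the median distance to the nearest H3K4me1 peak was 2715, 3277 and 3985 bp in replicates 1, 2 and 3 (3326 ± 636 bp, SD, n = 3) and 839 bp in the pooled list. For genes with no peak in any list it was 31867, 43767 and 45618 bp. When only H3K4me1 peaks with a −log10 p of at least 1.3 counted, in the choice as well as in the distance, 1351 genes qualified, 28.8% of them among the 389, and the mean of their medians was 29942 bp. Under the main choice, with all H3K4me1 peaks but without H3K27ac replicate 3, the mean of the medians was 5010 bp. Taking the nearest peak of the 4 lists, 63 of the 389 windows ended within 100 bp of H3K4me1 and 229, or 58.9%, within 1 kb. At the other end, 94 were more than 5 kb away and 51, or 13.1%, more than 10 kb away. The choice thus gathered promoters just short of H3K4me1 together with promoters far from any.

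On the downstream side, into the gene, H3K4me1 lay nearer. The nearest peak was downstream of the start for 227 of the 389 genes, or 58.4%. H3K4me1 came within 2 kb downstream of the start at 160 genes, within 2 kb upstream at 98, and on both sides at 43. The stretch free of H3K4me1 around the start had a median of 16372 bp, with quartiles of 6794 and 35361 bp. It exceeded 50 kb at 68 genes and was under 5 kb at 81.

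At 2 kb downstream of the start, H3K4me1 covered 13.4%, 15.2% and 11.6% of the 389 promoters in replicates 1, 2 and 3, compared with 47.0%, 51.1% and 48.9% of the promoters with both marks. At 2 kb upstream the shares were 7.46%, 9.0% and 5.66% against 20%, 21.1% and 21.0%. Both positions are outside the window at these start sites, but peaks that reach into the window often extend this far, so the difference follows in part from the choice. H3K27ac was highest just downstream of the start in both groups. At 200 bp it covered 77.6%, 72.0% and 73.0% of the promoters without H3K4me1 and 80.4%, 83.0% and 78.7% of those with both marks.

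**Figure D2:**
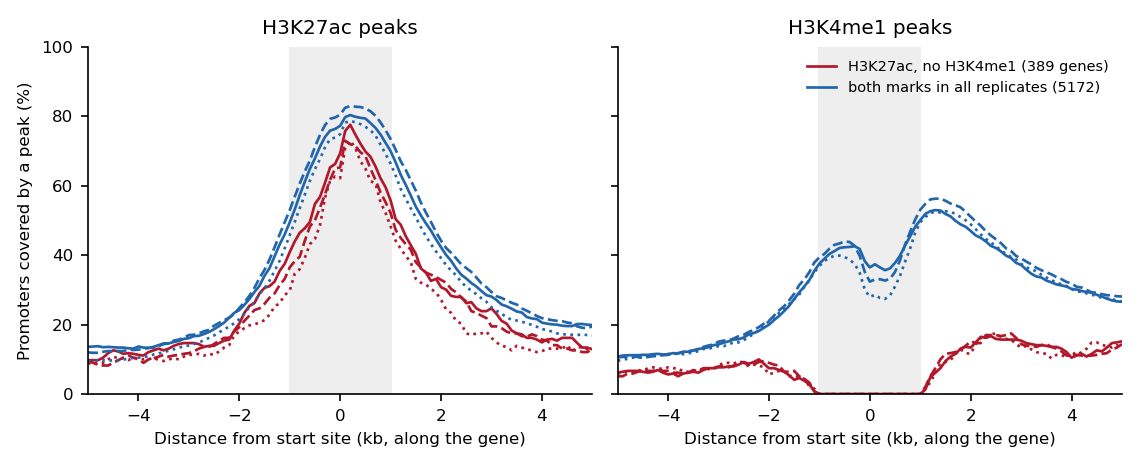
Share of promoters covered by an H3K27ac peak (left) or an H3K4me1 peak (right), in percent, against distance from the representative start site in kb along the gene. Red lines are the 389 promoters without H3K4me1 and blue lines the 5172 with both marks, with replicates 1, 2 and 3 solid, dashed and dotted; grey is the 1 kb window either side, empty of H3K4me1 in red by choice, and at 2 kb downstream red stays at 11.6% to 15.2% against 47.0% to 51.1% in blue.

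The choice had a sharp edge, which is described here without a test. Just inside it, the nearest H3K4me1 peak ended 0 bp from the window of Fbxw8, 1 bp from that of Snw1, 3 bp from that of Esyt1, 4 bp from that of U2af2 and 6 bp from that of Ostc. Just outside it, H3K4me1 overlapped the windows of Atxn1l by 2 bp and of Cse1l by 4 bp in the pooled list. It overlapped those of Mex3c by 3 bp in replicate 3, of Snu13 by 4 bp in replicate 1 and of Rnf10 by 7 bp in replicate 2. These 10 genes differ by a few bases and sit on opposite sides. Farthest from H3K4me1 were Gm14401 at 123099 bp, Naip2 at 70232 bp, Eid2 at 58029 bp, Srp54c at 56215 bp and Clec4a2 at 45012 bp. Most of these belong to families with near-identical copies, in which reads are hard to place and the distances are uncertain.

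Among the best-ranked promoters, Zc3h4 reached a fold enrichment of 3.03, 2.72 and 3.05 in replicates 1, 2 and 3 with peaks 10479, 8964 and 8348 bp wide. H3K4me1 began 718 bp from its window, and the stretch free of the mark was 3547 bp. Hnrnpa0 had 3.03, 2.68 and 2.77, with H3K4me1 37 bp away, and Gm10382 had 2.94, 2.95 and 3.11. At Zc3h4 the H3K27ac peaks were thus wider than the stretch free of H3K4me1 and ran on into the flanking H3K4me1.

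Setd1b, an H3K4 methyltransferase, had 2.76, 2.72 and 3.00, and Tnrc18 had 2.66, 2.53 and 2.74 with peaks of 14194, 14141 and 11915 bp. Cdk12, the kinase of elongating RNA polymerase II, had 2.48, 2.31 and 2.53, and Lrrc41, which starts 198 bp from the respiratory chain gene Uqcrh, had 2.45, 2.62 and 2.78. Judged by the narrowest of the 3 replicates, the widest peaks belonged to Tnrc18, Hoxd10, Meis1, Maf and Zc3h4. Maf, a leucine zipper factor, had a lower fold enrichment of 2.00, 2.04 and 1.93 over peaks of 10302, 9978 and 9680 bp. Of the 5 genes with the widest peaks, Zc3h4 and Tnrc18 were also among those with the highest fold enrichment.

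By function, 75 of the 389 genes were in a fixed list of a gene family or pathway and 314 in none. The background is 4.00%, the share of H3K27ac promoters that lacked H3K4me1 over all genes. Among lists with at least 15 H3K27ac promoters, mesenchymal and Müllerian duct transcription factors stood highest. Of 38 genes in that list 24 had H3K27ac in all 3 replicates, and 9 of the 24, or 37.5%, lacked H3K4me1. They were Hoxa9, Hoxa10, Hoxa11, Hoxd9, Hoxd10, Hoxd11, Meis1, Meis2 and Hand2. Of the remaining 15, 7 had both marks in all 6 replicate lists. The lists were compiled with earlier results of these data known, and neighbouring Hox genes share peaks, so these counts are a description.

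Hoxa10, which patterns the uterus and oviduct along the Müllerian duct, had an H3K27ac fold enrichment of 2.36, 2.16 and 2.35 under peaks of 14413, 27925 and 7230 bp. Its neighbour Hoxa9 had 2.27, 2.16 and 2.14, and Hoxa11 1.94, 2.16 and 1.97. In replicate 2 a single peak of 27925 bp covered all 3 promoters, which also lay in 1 stretch of 35102 bp without H3K4me1. Hoxa7 at its edge had H3K27ac in all 3 replicates and H3K4me1 in 1 list. Hoxd10 had 2.16, 2.01 and 2.10 with peaks of 16714, 13306 and 11541 bp, in a stretch of 19063 bp without H3K4me1 that also held Hoxd9 and Hoxd11. Hoxd9 had 2.16, 2.02 and 2.01, and Hoxd11, with H3K4me1 only 60 bp from its window, 2.00, 1.95 and 2.23.

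All 39 Hox genes were then looked at, a list chosen after these values were seen. H3K27ac lay over 16 of them in all 3 replicates, and 11 of the 16 lacked H3K4me1. The 5 beyond those above were Hoxb2, Hoxb6, Hoxc6, Hoxc9 and Hoxc10, the last a limb and posterior patterning gene with a fold enrichment of 1.63, 1.75 and 1.85. Fold enrichment over the 11 ranged from 1.61 to 2.36 and the distance to H3K4me1 from 60 to 9728 bp. Both marks in all 6 replicate lists were found at 1 gene, Hoxd3, and 10 Hox genes had no peak in any of the 8 lists. H3K27ac without H3K4me1 thus occurred in each of the 4 clusters, at 3 genes of Hoxa, 2 of Hoxb, 3 of Hoxc and 3 of Hoxd.

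Hand2 showed how the lists of replicates can differ at 1 promoter. Its fold enrichment was 2.72, 2.10 and 2.43, with a peak of 12739 bp over the start in replicate 1, 1066 bp in replicate 2 and 13825 bp in replicate 3. The window was covered over 2001, 1066 and 2001 bp, and coverage was 15.7, 14.0 and 16.2 times the genome mean. In replicate 2 separate H3K27ac peaks flanked the one over the start, and in the other replicates a single peak spanned the window. H3K4me1 lay upstream, 1164, 1138 and 1061 bp from the window in replicates 1, 2 and 3. Over the 4 lists the nearest edges were 2061 bp upstream and 5048 bp downstream of the start. Meis1, a homeodomain partner of HOX proteins, had 2.55, 2.27 and 2.14 under peaks of 12213, 18466 and 11359 bp with H3K4me1 671 bp away, and Meis2 had 1.94, 2.01 and 2.16.

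**Figure D3:**
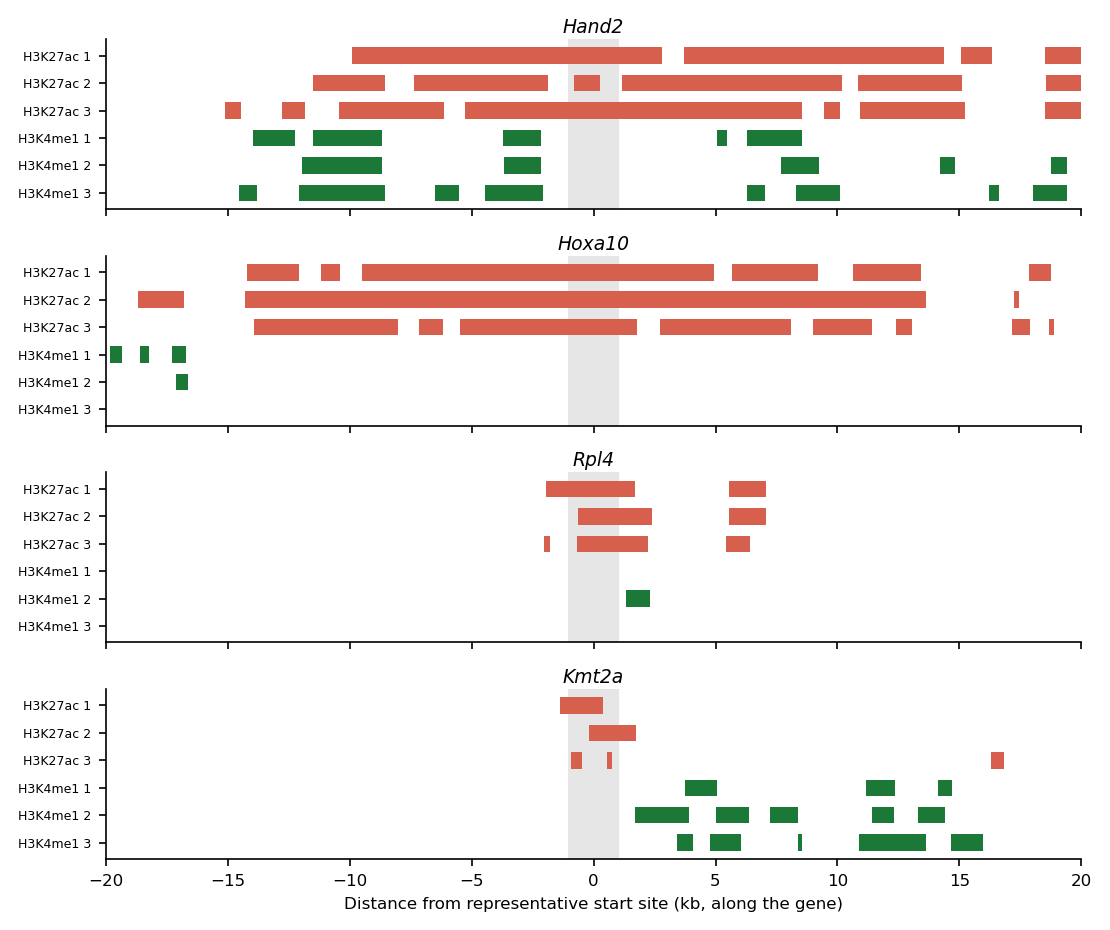
Peaks of H3K27ac (red) and H3K4me1 (green) in each replicate around the representative start site of Hand2, Hoxa10, Rpl4 and Kmt2a, in kb along the gene; grey is the 1 kb window either side. Broad H3K27ac over Hand2 has H3K4me1 on both sides from 2061 bp upstream and 5048 bp downstream, Hoxa10 lies in a stretch of 35102 bp without H3K4me1, Rpl4 has an H3K4me1 peak in 1 replicate beyond the window, and Kmt2a has H3K4me1 downstream in all 3.

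Immediate early genes, transcription factors and regulators induced within minutes of a stimulus, came next in the order of lists. Of 21 with H3K27ac in all 3 replicates 5, or 23.8%, lacked H3K4me1, namely Fosl2, Fosb, Jun, Ier3 and Myc, while 9 had both marks in every replicate. Fosl2, a FOS-family subunit of AP-1, had 2.47, 2.46 and 2.42 under peaks of 7998, 10342 and 9762 bp, with H3K4me1 221 bp from the window. Fosb had 2.36, 2.31 and 2.63, with H3K4me1 4759 bp away. Jun, the partner of FOS proteins in AP-1, had 2.33, 2.36 and 2.53, with H3K4me1 57 bp away. Ier3 had 2.11, 2.09 and 2.17, and Myc 2.23, 1.99 and 2.36. Among the 5, H3K4me1 was thus kilobases away from Fosb and Ier3, at 2928 bp for the latter, and just beyond the window for Jun and Fosl2.

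Enzymes that write or read H3K4 methylation were themselves in the group. All 18 genes of that list had H3K27ac in all 3 replicates, and 4, or 22.2%, lacked H3K4me1. Besides Setd1b they were Kmt2a, Kmt2d and Cxxc1, the CpG-binding subunit of the SETD1 complexes. Kmt2a had 1.89, 2.25 and 2.2, over 1381, 1639 and 635 bp of its window, with H3K4me1 210 bp beyond. Kmt2d, a main writer of H3K4me1, had 2.2, 2.18 and 2.63, with H3K4me1 288 bp away, and Cxxc1 had 2.06, 1.82 and 2.37, with H3K4me1 6773 bp away. None of 15 enzymes of H3K27 acetylation and methylation with H3K27ac was in the group, a list too short for a count of 0 to say much at the background of 4.00%.

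Ribosomal protein genes gave the largest number, 14 of 77 with H3K27ac in all 3 replicates, or 18.2%, while 19 of the 77 had both marks in every replicate. Rpl4 had 2.65, 2.59 and 2.47 under peaks of 3652, 3039 and 2924 bp, values it shared with Zwilch, a kinetochore gene that starts 271 bp away on the other strand. Both lay in a stretch of 87037 bp free of H3K4me1. In replicate 2 the mark began 314 bp beyond the window of Rpl4, while the nearest H3K4me1 was 32819 bp away in replicate 1 and 44787 bp away in replicate 3. Rpl23 had 2.53, 2.28 and 2.06, Rpl32 2.11, 2.17 and 2.23, and Rps2 2.11, 2.27 and 2.13. Also in the group were Rps18, Rplp1, Rpl22, Rps15, Rpl13, Rps19 and Rplp0. Over the 14 the median distance to H3K4me1 was 400 bp, against 662 bp over all 389 genes, with a range of 8 to 8371 bp. Of the 14, 12 starts were CpG-rich. Many ribosomal protein genes have near-identical processed copies elsewhere in the genome, so reads from their exons are uncertain in place.

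Other parts of the translation and RNA machinery followed. Among translation factors it was 7 of 58, or 12.1%, with Eif3d (2.48, 2.30 and 2.75), a subunit of the initiation factor eIF3, ranked best, and Eif4a1, the helicase of cap-dependent initiation, at 2.18, 2.57 and 2.31. Eif1, which guides start codon choice, had 2.13, 1.88 and 2.00 with no H3K4me1 within 28233 bp. Among spliceosome proteins it was 5 of 49, or 10.2%: Srsf3, Sf3a2, U2af2, U2af1l4 and Snrpd2. Srsf3, an SR protein, had 2.85, 2.2 and 2.53. Sf3a2 had 2.68, 2.13 and 2.28, values shared with Plekhj1 106 bp away. The stretch free of H3K4me1 differed widely among the factors named, with 2187 bp at Eif4a3, 2982 bp at Srsf3 and 203168 bp at Eif3d.

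Chromatin remodelling and transcription complexes gave small counts, to be read beside the background of 4.00%. At counts this small, differences between their shares say little. Of RNA polymerase subunits and general transcription factors 1 of 65, Polr2i, or 1.54%, lacked H3K4me1. Without H3K4me1 replicate 2 or H3K4me1 replicate 3 that count was 2. SWI/SNF, the nucleosome remodelling complex with BRG1 or BRM as its motor, gave 3 of 22, or 13.6%. Smarcc2, a core scaffold subunit, had 1.91, 1.79 and 1.84, Brd9 of the non-canonical complex 2.10, 1.75 and 2.26 with H3K4me1 28725 bp away, and Bcl7a 1.78, 1.83 and 2.23. Smarca4, which encodes BRG1, and Pbrm1 had H3K4me1 at the promoter in all 4 lists and so were not in the group. Mediator gave 2 of 27 (Med20 and Med10), or 7.41%. Proteasome subunits gave 4 of 42 (Psme2, Psmb5, Psmb6 and Psmd3), or 9.52%. Cyclins and their kinases gave 3 of 31, or 9.68%. The last were Cdk12, Ccnt1 and Ccnt2, all subunits of kinases that act on RNA polymerase II, and Ccnt2 had 2.21, 2.17 and 2.17.

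Near the background were mitochondrial ribosomal proteins with 3 of 72, or 4.17%, and collagen and matrix genes with 1 of 25, and below it Zfp zinc finger genes with 7 of 278. Without H3K27ac replicate 3, H3K4me1 replicate 1 or H3K4me1 replicate 3 the Zfp count was 11. The matrix gene was Fn1, fibronectin, at 2.19, 2.00 and 2.03 with H3K4me1 276 bp away. Hspa8, the constitutive chaperone HSC70, was 1 of 68, and Cox6b1 of the respiratory chain 1 of 70. Without H3K4me1 replicate 1 each of these lists held 2, as did the chaperones without H3K4me1 replicate 2 or H3K27ac replicate 2. None was found among 57 replication-dependent histone genes, 42 DNA repair factors, 33 DNA replication factors, 33 aminoacyl-tRNA synthetases, 28 ubiquitin-conjugating enzymes or 14 peroxins with H3K27ac. The histone list held 1 without H3K4me1 replicate 3, and the replication list 1 without H3K27ac replicate 1. The repair list held 1 without H3K27ac replicate 2 or H3K4me1 replicate 3. At the background of 4.00% lists of these sizes would hold few such genes or none, so the counts of 0 say little.

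Genes of muscle contraction and of the hormones that act on the oviduct were looked up in the same way. None of 9 smooth muscle contractile genes with H3K27ac in all 3 replicates lacked H3K4me1, nor did any of 12 prostaglandin genes or 9 steroid receptors and cofactors. In each of these lists the background share also amounts to less than 1 gene, so the counts of 0 say little. Ptgs2, the inducible cyclooxygenase, had H3K4me1 over 264, 534 and 861 bp of its window in replicates 1, 2 and 3. The prostaglandin E receptors Ptger2 and Ptger4 had it in 4 and 3 lists. Ptgs1, Ptger3, Ptgir, Ptgfr, Ptgdr, Ptgdr2 and Tbxa2r did not have H3K27ac in all 3 replicates and could not be chosen. Actb and Gapdh each had H3K4me1 in 3 lists. Actg1, by contrast, was in the group at 3.00, 2.22 and 2.31 with H3K4me1 799 bp away.

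**Figure D4:**
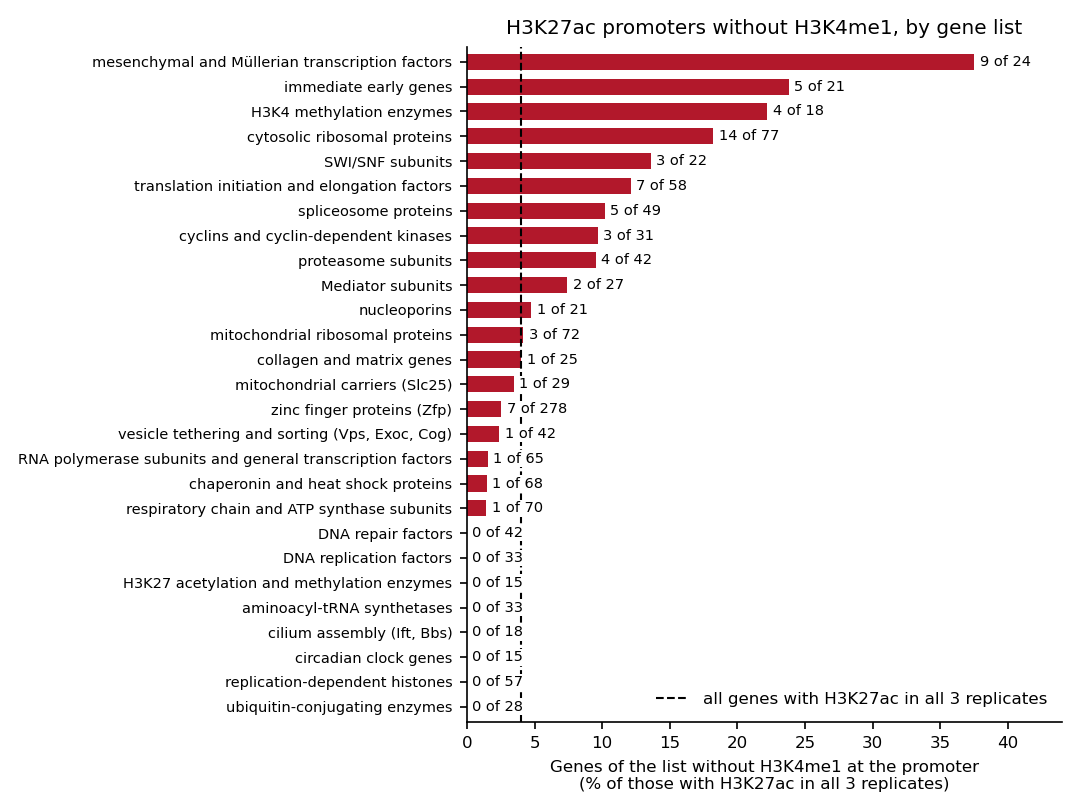
Genes without H3K4me1 at the promoter, as a percentage of the genes of each list with H3K27ac in all 3 replicates, for lists with at least 15 such genes. Bars give the share, labels the counts, and the dashed line the 4.00% over all genes with H3K27ac in all 3 replicates; mesenchymal and Müllerian transcription factors (9 of 24), immediate early genes (5 of 21), H3K4 methylation enzymes (4 of 18) and cytosolic ribosomal proteins (14 of 77) lie farthest to the right.

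The width of the promoter window changed the counts of the lists. With a window of 2 kb either side, 181 genes qualified, or 0.873%, of which 160 were among the 389. Of the 9 mesenchymal factors 7 were left, namely Hand2, Hoxa9, Hoxa10, Hoxa11, Hoxd9, Hoxd10 and Meis2. Of the 14 ribosomal proteins 4 were left (Rpl22, Rplp1 and Rps18 among them), of the 5 immediate early genes 2 (Fosb and Ier3) and of the 4 H3K4 methylation enzymes 1 (Cxxc1). With a window of 500 bp either side, 955 genes qualified, or 4.61% of all genes. Among them were 11 mesenchymal factors and 23 ribosomal proteins, so both lists grew by a smaller factor than the total. The 160 at 2 kb are 41.1% of the 389, the share against which the counts at 2 kb stand. Those of the ribosomal, immediate early and H3K4 methylation lists are too small to set apart from it. Hoxd11 and Meis1 were the mesenchymal factors lost at 2 kb.

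The sequence at the start site was not part of the choice. A start was called CpG-rich when the stretch from 250 bases before to 50 bases after it had a GC content of at least 50% and at least 0.6 times the CpG dinucleotides expected from its bases. By this measure 280 of the 389 genes, or 72.0%, had a CpG-rich start, against 45.1% of all genes, 67.9% of the genes with both marks and 10.0% of those with no peak. Under a stricter definition (GC of at least 55% and a CpG ratio of at least 0.75) the order turned, with 46.0% of the 389, 47.0% of genes with both marks and 48.9% of the other H3K27ac genes. By the first definition other genes with H3K27ac in all 3 replicates had 70.7%, a value inside the 95% Clopper-Pearson interval of the 389, 67.2% to 76.4%, which covers counting error only. The median ratio of observed to expected CpG was 0.773 for the 389, 0.772 for the genes with both marks and 0.182 for those with no peak. The interval takes genes as independent although 54 of them share windows in pairs, and without H3K27ac replicate 2 the share was 65.6%, below it.

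**Figure D5:**
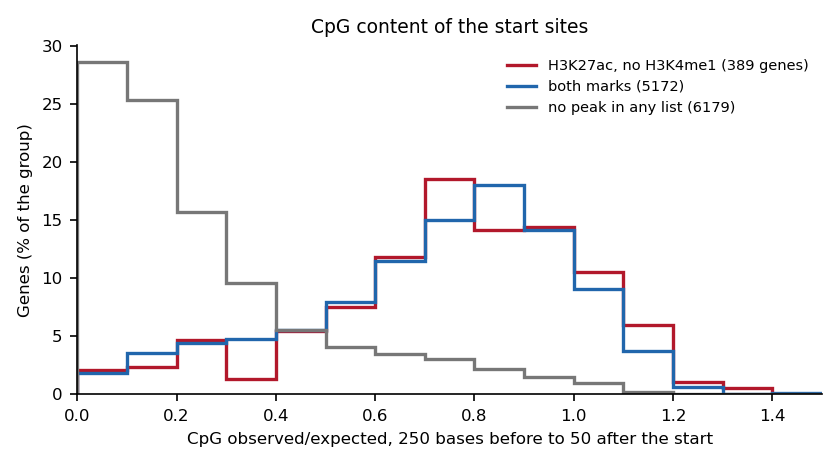
Distribution of the ratio of observed to expected CpG in the 300 bases around the start, in percent of the genes of each group, for promoters with H3K27ac and no H3K4me1 (red, 389 genes), with both marks (blue, 5172) and with no peak in any list (grey, 6179). The red and blue outlines overlap with medians of 0.773 and 0.772, and grey lies to the left with a median of 0.182.

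Motif content was described by the share of promoters holding each match. The GC box lay in 63.0% of the 389 stretches, 63.1% of those with both marks, 17.3% of those with no peak and 46.0% of all. The CCAAT box lay in 40.9%, against 38.3% with both marks, 39.8% with no peak and 38.1% of all. The NRF1 match was found in 17.0%, compared with 14.0% with both marks and 8.49% of all, and the YY1 match, as printed for Rxrb and Gpatch3, in 4.63%, 2.9% and 1.83%. The CREB match, as printed for Fscn1, lay in 25 of the 389, or 6.43%, against 3.69% with both marks and 2.50% of all. For ETS the shares were 7.71%, 8.08% and 5.11%, for ZNF143 3.86%, 4.22% and 3.87%, for the E-box 9.25%, 10.0% and 7.83% and for CTCGCGAG 1.80%, 2.34% and 1.2%.

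The TATA box lay in 7.2% of the 389, 7.35% of promoters with both marks, 21.8% of those with no peak and 12.6% of all. AP-1 matches lay in 4.63%, against 6.64% of all genes and 4.28% of the other genes with H3K27ac in all 3 replicates. TEAD matches lay in 11.6%, against 13% and 11.7%. Both were thus no more frequent than over all genes and nearly level with the other H3K27ac genes. The CArG box of muscle genes, as printed for Actg1, lay in 5 of the 389, or 1.29%, against 1.39% of all. At the other genes with H3K27ac in all 3 replicates, the NRF1 match lay in 14.6%, the YY1 match in 3.31% and the CREB match in 3.79%. The shares of the 389 for these motifs rest on 66, 18 and 25 genes, and head-to-head pairs enter such counts under both names.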

How the data were processed

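Lists of ChIC-Seq peaks for each mark, H3K27ac and H3K4me1 (3 replicates and 1 pooled), were analysed, and IgG entered as the control of each call. Per the submitters' processing notes, cutadapt, Bowtie2, MACS2 and GRCm38.p5 were used. Per the file headers, the authors called broad peaks from paired-end fragments with MACS 2.2.7.1, for each replicate and for the pool, and scaled the larger library to the IgG depth. The deposited pileup is coverage (a signal in scaled fragments), the deposited fold enrichment is a ratio, and the deposited −log10 p-value is the mean over a region. Low IgG depth limits how finely peaks resolve. No list of problematic regions was applied here.

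Start sites were the 52092 of autosomal coding genes in GENCODE mouse release 21. Coverage over the genome mean divided pileup by that expected from the IgG depth. Each gene's representative start was the APPRIS principal, then the one with most coding transcripts, then the most upstream. Motifs were searched in 300 bases around it. Scripts ran in Python 3.11.15 with pandas 2.3.3 and numpy 2.4.6 and were tested on simulated data. Genes were named for highest fold enrichment, widest peak, membership of a fixed list, distance to H3K4me1 and head-to-head pairing. Hand2, Actb, Gapdh, Pbrm1, Smarca4 and prostaglandin genes were fixed. Values were given for at most 6 members of a list, except that all mesenchymal factors had them. Further genes were named for highest coverage, smallest overlap, lowest rank, a printed motif or as Hox genes. The members, lists and alternatives were chosen with earlier results of these data known. Some genes that met this rule are not reported here. Values are descriptions without a test. Alternatives changed the window, start sites, lists, peak thresholds, replicates and CpG definition.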

Additional observations from a re-analysis of the deposited data

How the results depend on the processing

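Each result was recomputed under alternatives that changed 1 choice. Of 100 alternative values of 5 results, 63 stayed within their spread (for the number of genes, within 1.5 times) and 37 moved. The number of genes (389) was 1497, 955 and 181 with windows of 250 bp, 500 bp and 2 kb either side, 888 with the replicate H3K4me1 lists only, 669 with the pooled list only, 1351 counting only H3K4me1 peaks of −log10 p at least 1.3, and 243 with that threshold on H3K27ac. The share of CpG-rich starts (72.0%) was 81.7%, 80.5% and 63.5% with those 3 windows, 77.6% with 1 start per gene, 78.2% with the H3K27ac threshold, 80.2% over 250 bp either side and 46.0% under a stricter definition. The head-to-head share (21.9%) was 14.7% within 300 bp. The median distance to H3K4me1 (3326 bp) was 945, 1153 and 10682 bp with those windows, 2277 bp with 1 start, 4000 bp with replicate lists only, 1432 bp with the pooled list only, 29942 bp with the H3K4me1 threshold and 2195 bp with the H3K27ac threshold. The fold enrichment ratio (0.993) was 1.01, 1.01 and 0.953 with those windows, 1.01 with 1 start, 0.943 and 1.01 with the H3K4me1 and H3K27ac thresholds, and 1.2 by coverage or 0.607 by width. Leaving out each replicate in turn gave 420 to 471 genes, CpG-rich shares of 65.6% to 72.3%, head-to-head shares of 20% to 21.9%, distances of 3334 to 5010 bp and ratios of 0.966 to 0.991. The distance was highest, 5010 bp, without H3K27ac replicate 3. No paired test was made, because no result here comes from a test that a replicate block could enter. Ratios between promoter groups are given within each replicate. Window width and the threshold for H3K4me1 moved the number most, and the cause was not tested. The IgG depth limits what an uncalled peak can show.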
